A study of Mus musculus with 9 samples.

Results

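Blood vessels in inflamed skin admit leukocytes by displaying adhesion molecules on their inner lining, and they change calibre, leakiness and growth in answer to locally made peptides. The genes described here are 10 endothelial activation and vasoactive genes: Icam1, Vcam1, Sele, Selp, Pecam1, Cdh5, Pdpn, Vegfa, Edn1 and Ednrb. They were chosen by name, with earlier results of these data known. Each gene is represented by the probe set that carries its symbol alone, and where several would do, by the one with the highest mean over the 9 arrays. Of the 10 genes, 9 were measured this way, each by 1 probe set, among 19938 genes tested in all. Selp, which encodes P-selectin, is not analysed here.

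The values are log2 expression values of whole ear skin RNA from female C57BL/6 mice aged 7 to 9 weeks, on Affymetrix Mouse Gene 1.0 ST arrays. One group of 3 arrays came from ears treated with anisomycin, an antibiotic that stalls ribosomes and thereby switches on stress kinases, painted on at 2 mg/ml in 99.5% ethanol with 10 µl for each side of the ear. A second group of 3 came from ears treated with imiquimod, a ligand of Toll-like receptor 7, given as 10 mg of a 5% cream. Both treatments ran for 5 consecutive days. The third group of 3 is labelled vehicle, and the labels used here give neither its content nor its duration, so an effect of a solvent or cream base cannot be told apart from that of an agent. The labels do not say in words that each array is a separate mouse. If they are not, the spread behind the p-values may be technical.

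Whole ear skin holds epidermis, dermis, cartilage, muscle and vessels, and its defining markers were bright in every array, with a mean log2 level of at least 10.999 over 10 keratinocyte markers and 9.67 over 9 fibroblast markers. In such bulk RNA, fewer cells of a type and less RNA per cell cannot be told apart. A gene was called when limma's test gave a Benjamini-Hochberg adjusted p under 0.05 over all 19938 genes, from a fit of the 3 groups together. For anisomycin against vehicle 22.3% of all genes were called higher and 23.3% lower, for imiquimod against vehicle 20.4% and 22.4%, and for anisomycin against imiquimod 10.8% and 9.59%. Counts of called genes in a list are to be read beside these shares. The balance of higher and lower calls depends on the scaling. Higher genes made up 49% of the calls for anisomycin and 47.7% for imiquimod against vehicle, but 61.5% and 58.1% with arrays centred on their medians, and 37.1% and 36.4% with arrays centred on genes of stable rank. Across genes, the SD of 3 arrays had a median of 0.078 for anisomycin, 0.0595 for imiquimod and 0.098 for vehicle. Signal over background could not be tested from the deposited values, and a fold change is a difference of log2 values, given with its standard error (SE) from limma and n = 3 arrays per group. Sele, Edn1 and Vcam1 had the lowest vehicle means of the members, at percentiles 41.47, 43.31 and 43.75 of all genes. Whether dim signal narrowed their changes was not tested.

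The members act at successive steps. E-selectin (Sele) and P-selectin catch rolling leukocytes, and ICAM-1 (Icam1) and VCAM-1 (Vcam1) hold them through integrins. PECAM-1 (Pecam1) and VE-cadherin (Cdh5) sit at the junctions between endothelial cells. Podoplanin (Pdpn) is a mucin-type glycoprotein of lymphatic endothelium that is also made by other cells, among them keratinocytes and fibroblasts at wound sites. VEGF-A (Vegfa) is the main growth and permeability factor for blood vessels and in skin comes largely from keratinocytes. Endothelin 1 (Edn1) is a vasoconstrictor peptide that also acts on sensory nerves, and the endothelin B receptor (Ednrb) binds it on endothelium and on melanocytes.

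Promoter windows of 250 bases before to 50 bases after an annotated start were found in RefSeq's GRCm38.p6 table for 7 of the 10 genes. There was no entry for Vcam1, Pecam1 and Cdh5. The windows of 4 genes called higher with anisomycin are shown, because their expression differed most plainly between treatments or belongs to leukocyte adhesion. Capitals mark every match, on either strand, to GGG and CC with a spacer of 5 bases (a loose NF-kB pattern), TGANTCA (the AP-1 pattern), ACGTG (the usual core of the hypoxia response element), GCGTG (its other core), TATAAA (the TATA box pattern) and AGATAA (the pattern of GATA factors).
Edn1 (plus strand, chr13:42301226-42301525): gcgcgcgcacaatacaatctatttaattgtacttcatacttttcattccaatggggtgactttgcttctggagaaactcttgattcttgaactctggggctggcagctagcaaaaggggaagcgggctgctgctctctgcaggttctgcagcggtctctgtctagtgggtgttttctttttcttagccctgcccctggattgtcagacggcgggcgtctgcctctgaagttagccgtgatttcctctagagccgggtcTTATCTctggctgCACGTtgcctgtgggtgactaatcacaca
Icam1 (plus strand, chr9:21015690-21015989): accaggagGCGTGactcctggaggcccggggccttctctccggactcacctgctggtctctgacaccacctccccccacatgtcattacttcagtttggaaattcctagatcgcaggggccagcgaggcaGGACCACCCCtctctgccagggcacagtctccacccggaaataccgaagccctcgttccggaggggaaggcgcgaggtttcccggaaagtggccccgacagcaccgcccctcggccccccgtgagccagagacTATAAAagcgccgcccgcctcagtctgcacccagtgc
Sele (plus strand, chr1:164047984-164048283): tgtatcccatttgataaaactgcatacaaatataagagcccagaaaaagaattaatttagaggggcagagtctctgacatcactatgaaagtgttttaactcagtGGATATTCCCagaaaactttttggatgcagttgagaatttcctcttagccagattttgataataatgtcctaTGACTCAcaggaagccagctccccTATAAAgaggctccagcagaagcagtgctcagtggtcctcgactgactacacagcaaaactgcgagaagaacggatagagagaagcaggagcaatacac
Pdpn (minus strand, chr4:143299515-143299814): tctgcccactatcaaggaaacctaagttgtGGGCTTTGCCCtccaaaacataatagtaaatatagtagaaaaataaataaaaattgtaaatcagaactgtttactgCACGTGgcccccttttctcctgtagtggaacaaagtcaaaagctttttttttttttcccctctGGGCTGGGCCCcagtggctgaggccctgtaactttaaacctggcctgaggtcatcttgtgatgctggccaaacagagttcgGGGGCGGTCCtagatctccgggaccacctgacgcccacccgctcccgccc

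In the Sele window, whose start lies within the annotated span of the gene, an NF-kB pattern began at position -145, an AP-1 match at -73 and a TATA box at -49, counted from the start site. The Icam1 window held an NF-kB pattern at -120, a GCGTG at -242 and a TATA box at 14, that is, just after the annotated start. The Pdpn window held 3 places with the NF-kB pattern, starting at -220, -81 and 1. The first 2 of these also match on the other strand, 1 base further on, and ACGTG matched on both strands at -144 and -143. The Edn1 window held a GATA match at 9 and an ACGTG match at 22, and no match to the NF-kB or AP-1 patterns. Of all 32851 windows in the table, 50.8% held the NF-kB pattern, 7.81% the AP-1 pattern, 19.6% ACGTG, 32.4% GCGTG, 13.6% the TATA box and 11.2% the GATA pattern. A match describes letters only and shows neither a site nor a cause. The lack of a match likewise does not show that a site is absent.

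Edn1 stood apart from every other member. In ears treated with anisomycin its arrays read 9.68, 9.18 and 9.07, in imiquimod ears 6.06, 6.03 and 6.12, and in vehicle ears 6.26, 6.04 and 6.07. The anisomycin arrays lay far above all others, while the imiquimod and vehicle arrays overlapped. Edn1 rose by 3.18 with anisomycin against vehicle (SE 0.14, limma adjusted p = 2.82e-07), a 9.09-fold difference, and by 3.24 against imiquimod (SE 0.14, limma adjusted p = 1.73e-06). Imiquimod differed from vehicle by -0.053, with a 95% interval from -0.37 to 0.26 (limma adjusted p = 0.804). That interval leaves out any change as large as the one measured with anisomycin.

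The receptor gene Ednrb moved less and in smaller steps. It read 7.97, 7.82 and 7.62 in anisomycin ears, 7.28, 7.44 and 7.09 in imiquimod ears, and 7.01, 6.96 and 6.96 in vehicle ears, and the groups did not overlap. It rose with anisomycin by 0.82 against vehicle (SE 0.10, limma adjusted p = 0.000145) and by 0.53 against imiquimod (SE 0.10, limma adjusted p = 0.00731). The difference of 0.29 between imiquimod and vehicle passed narrowly (SE 0.10, limma adjusted p = 0.0487), and that call ended without any 1 of anisomycin replicate 2, imiquimod replicates 1 and 2 and vehicle replicates 1, 2 and 3, where the adjusted p reached 0.175. It also ended with the trended robust prior, with array weights and with arrays centred on stable genes, at an adjusted p of 0.051, 0.062 and 0.121.

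Other genes of the endothelin pathway moved in both directions. Of 5 measured besides Edn1 and Ednrb, 2 rose and 2 fell with anisomycin, and 1 rose and 2 fell with imiquimod. Over all genes 22.3% rose and 23.3% fell with anisomycin, and 20.4% and 22.4% with imiquimod. Between the treatments 2 were higher with anisomycin and 0 lower by limma, also 0 at an unadjusted p under 0.05, and 4 were higher with array weights. The converting enzyme genes Ece1 and Ece2, whose products release active endothelin from its precursor, rose by 0.40 and 1.03 with anisomycin (limma adjusted p = 0.0027 and 5.25e-06), and Ece2 by 0.51 with imiquimod (limma adjusted p = 0.000433). Both were higher with anisomycin than with imiquimod, Ece2 by 0.51 and Ece1 by 0.35 (limma adjusted p = 0.0021 and 0.0158), and the call of Ece1 ended without anisomycin replicate 2 or imiquimod replicate 1. Mme, which encodes the endothelin-degrading peptidase neprilysin, was at -0.78 with anisomycin and -0.98 with imiquimod. The ligand gene Edn3 was at -0.52 with anisomycin and -0.72 with imiquimod. Both genes were called lower by limma with each agent (adjusted p at most 0.000662). Edn2 was the gene called with neither, at -0.054 and -0.093, and is named after its values were seen. Ednra is not analysed here.

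Icam1 was the adhesion gene with the largest rise. It read 9.51, 9.35 and 9.11 in anisomycin ears, 8.30, 8.03 and 8.28 in imiquimod ears, and 7.56, 7.74 and 7.47 in vehicle ears. The 3 groups were fully separated, in the order anisomycin, imiquimod, vehicle. It rose by 1.73 with anisomycin (SE 0.12, limma adjusted p = 3.39e-06) and by 0.62 with imiquimod (SE 0.12, limma adjusted p = 0.00211), which are 3.33-fold and 1.53-fold. The difference between the treatments, 1.12, also passed (SE 0.12, limma adjusted p = 0.000439).

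Vcam1 rose with anisomycin and was the least even member within that group. Its anisomycin arrays read 7.20, 6.79 and 6.33, against 5.94, 6.04 and 6.07 in imiquimod ears and 6.08, 6.19 and 6.18 in vehicle ears. All anisomycin arrays were highest, and the imiquimod arrays all lay just under the vehicle arrays, which held for 27.4% of all genes. The rise against vehicle was 0.62 (SE 0.17, limma adjusted p = 0.0155), but 0.41 without anisomycin replicate 1, and its call ended without vehicle replicate 1 (adjusted p = 0.0507). Against imiquimod Vcam1 was higher by 0.76 (SE 0.17, limma adjusted p = 0.0153), a call that ended without anisomycin replicate 2 or imiquimod replicate 1 (adjusted p of 0.0533 and 0.058). Imiquimod against vehicle gave -0.14, with a 95% interval from -0.53 to 0.26.

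Sele had a smaller range. It read 6.76, 6.69 and 6.51 in anisomycin ears, 6.29, 6.25 and 6.29 in imiquimod ears, and 5.93, 6.22 and 5.91 in vehicle ears. The groups again did not overlap, with vehicle replicate 2 close to the imiquimod arrays. The rise with anisomycin was 0.63 against vehicle (SE 0.09, limma adjusted p = 0.000401). With imiquimod the difference of 0.25 just missed the threshold (SE 0.09, limma adjusted p = 0.0547), and it passed at 0.35 without vehicle replicate 2 (adjusted p = 0.00579) and at 0.25 without anisomycin replicate 3 (adjusted p = 0.0392). The difference between treatments was 0.38 (SE 0.09, limma adjusted p = 0.0207), a call that ended without any 1 of anisomycin replicates 1 and 2 and the 3 imiquimod arrays, at an adjusted p of up to 0.0759.

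Many genes for the leukocyte partners of these adhesion molecules rose with both agents, where leukocyte markers were also higher. Both lists hold Itgam, so they are not independent. Of 13 measured genes for counter-receptors and for the enzymes that build selectin ligands, 8 rose and 0 fell with anisomycin by limma, also 0 at an unadjusted p under 0.05, and 7 rose and 1 fell with imiquimod. Over all genes 22.3% rose and 23.3% fell with anisomycin, and 20.4% and 22.4% with imiquimod. Between the treatments 10.8% of all genes were higher with anisomycin and 9.59% lower. Between the treatments 3 were higher and 1 lower with anisomycin, counts of 6 and 2 with array weights, of 5 and 1 without anisomycin replicate 3, and of 3 and 2 without vehicle replicate 1 or 3. The ICAM-1 partner Itgam rose by 2.92 with anisomycin and 2.98 with imiquimod (limma adjusted p = 3.16e-08 and 3.14e-08). The selectin ligand gene Selplg rose by 1.64 and 1.45 (limma adjusted p = 2.25e-06 and 6.6e-06), and Cd44, which keratinocytes also make, by 2.20 and 1.81. Gcnt1, a glycosyltransferase gene for selectin ligands, rose by 1.42 with anisomycin (limma adjusted p = 6.06e-05) and was higher by 0.85 than with imiquimod (limma adjusted p = 0.0058). The gene lower with anisomycin than with imiquimod was Itgb2, which encodes the chain that pairs with the Itgam product, at -0.34 (limma adjusted p = 0.00598). The 1 gene that fell with imiquimod was Fut4, at -0.22, named after its value was seen, and its call ended without the dimmest genes, with arrays centred on their medians, after cyclic loess and without imiquimod replicate 1 or 3 or vehicle replicate 1 or 2.

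Of the junction genes, Cdh5 rose with anisomycin and Pecam1 was not called in any comparison. Cdh5 read 8.74, 8.53 and 8.08 in anisomycin ears, 7.33, 7.54 and 7.43 in imiquimod ears, and 7.43, 7.76 and 7.54 in vehicle ears. Only the anisomycin arrays stood apart, and imiquimod and vehicle overlapped. The rise was 0.88 against vehicle (SE 0.16, limma adjusted p = 0.00121) and 1.02 against imiquimod (SE 0.16, limma adjusted p = 0.00249), while imiquimod against vehicle gave -0.14 with a 95% interval from -0.49 to 0.21.

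Pecam1 read 7.86, 7.76 and 7.45 in anisomycin ears, 7.22, 7.33 and 7.21 in imiquimod ears, and 7.18, 7.71 and 7.45 in vehicle ears. The vehicle arrays were spread widely, and their range held all imiquimod arrays and the lowest anisomycin array. Anisomycin against vehicle gave 0.24 (SE 0.14, limma adjusted p = 0.19), with a 95% interval from -0.069 to 0.55, and moved to 0.37 without vehicle replicate 2 (adjusted p = 0.0428), which passed, and to 0.11 without vehicle replicate 1 (adjusted p = 0.539) and 0.16 without anisomycin replicate 1 (adjusted p = 0.45), which did not. It also passed with array weights, at 0.38 (adjusted p = 0.0115). Anisomycin against imiquimod gave 0.43 (SE 0.14, limma adjusted p = 0.0552), and this passed without any 1 of anisomycin replicate 3 and vehicle replicates 1 and 2, at an adjusted p down to 0.019. Imiquimod against vehicle gave -0.19 (limma adjusted p = 0.315).

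Pdpn rose strongly. It read 10.53, 10.44 and 10.02 in anisomycin ears, 9.04, 9.12 and 9.00 in imiquimod ears, and 8.18, 8.42 and 8.17 in vehicle ears, 3 groups without overlap. The rise was 2.07 with anisomycin (SE 0.13, limma adjusted p = 1.98e-06) and 0.80 with imiquimod (SE 0.13, limma adjusted p = 0.000739), or 4.20-fold and 1.74-fold. Between the treatments the difference was 1.28 (SE 0.13, limma adjusted p = 0.000336).

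Most other lymphatic endothelial markers fell. Of 5 measured besides Pdpn, 1 rose and 3 fell with anisomycin, and 1 rose and 4 fell with imiquimod. Their mean log2 level was 7.0004 to 7.07 by array in anisomycin ears, 6.94 to 6.99 in imiquimod ears and 7.35 to 7.57 in vehicle ears. Mmrn1, an extracellular protein of lymphatic endothelium, was at -1.31 with anisomycin and -1.02 with imiquimod, and Reln at -1.08 and -0.92, both called lower by limma (adjusted p at most 0.000268). The lymphatic transcription factor gene Prox1 was at -0.31 with anisomycin (limma adjusted p = 0.0176), a call that ended with arrays centred on their medians, after cyclic loess and without vehicle replicate 3, and at -0.54 with imiquimod (limma adjusted p = 0.000829). Lyve1, which some macrophages also express, rose by 0.61 with anisomycin (limma adjusted p = 0.000826). Its rise with imiquimod, the 1 rise there, was lost with arrays centred on stable genes, after cyclic loess and without any 1 of the imiquimod arrays or vehicle replicates 1 and 2. Between the treatments limma called 0 of these 5 genes, and 3 were higher with anisomycin at an unadjusted p under 0.05. Calls between the treatments numbered 1 higher and 1 lower without anisomycin replicate 3, 1 higher without vehicle replicate 1 or 3, and 2 higher without vehicle replicate 2. They numbered 3 higher and 2 lower with array weights, and 3 higher with only these groups fitted. Fibroblast and keratinocyte markers, from cells that can also make podoplanin, moved too. The shares over all genes were 22.3% higher and 23.3% lower with anisomycin, and 20.4% and 22.4% with imiquimod. Of 9 fibroblast markers 1 rose and 6 fell with anisomycin, where the mean log2 level of the list was 9.78 to 9.88 by array, against 10.38 to 10.51 in vehicle ears. With imiquimod 0 of them rose, also 0 at an unadjusted p under 0.05 by limma, and 6 fell, with list means of 9.67 to 9.78. Of 10 keratinocyte markers 4 rose and 2 fell with anisomycin, with list means of 11.41 to 11.69, against 10.999 to 11.37 in vehicle ears. With imiquimod 5 rose and 1 fell, with list means of 11.59 to 11.65. The split of keratinocyte markers depended on the scaling, with 7 higher with anisomycin when arrays were centred on their medians, and, after cyclic loess, 5 lower with anisomycin and 6 lower with imiquimod. The part of these cell types in the Pdpn values was not tested.

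Vegfa rose with both agents by similar amounts. It read 8.24, 8.26 and 8.19 in anisomycin ears, 8.27, 8.35 and 8.19 in imiquimod ears, and 7.31, 7.69 and 7.26 in vehicle ears. The treated groups overlapped each other and lay wholly above vehicle. Vegfa rose by 0.81 with anisomycin (SE 0.10, limma adjusted p = 0.000166) and by 0.85 with imiquimod (SE 0.10, limma adjusted p = 0.000152). The difference between the treatments was -0.040, with a 95% interval from -0.28 to 0.20, which does not show that they act alike beyond that width.

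**Figure D1:**
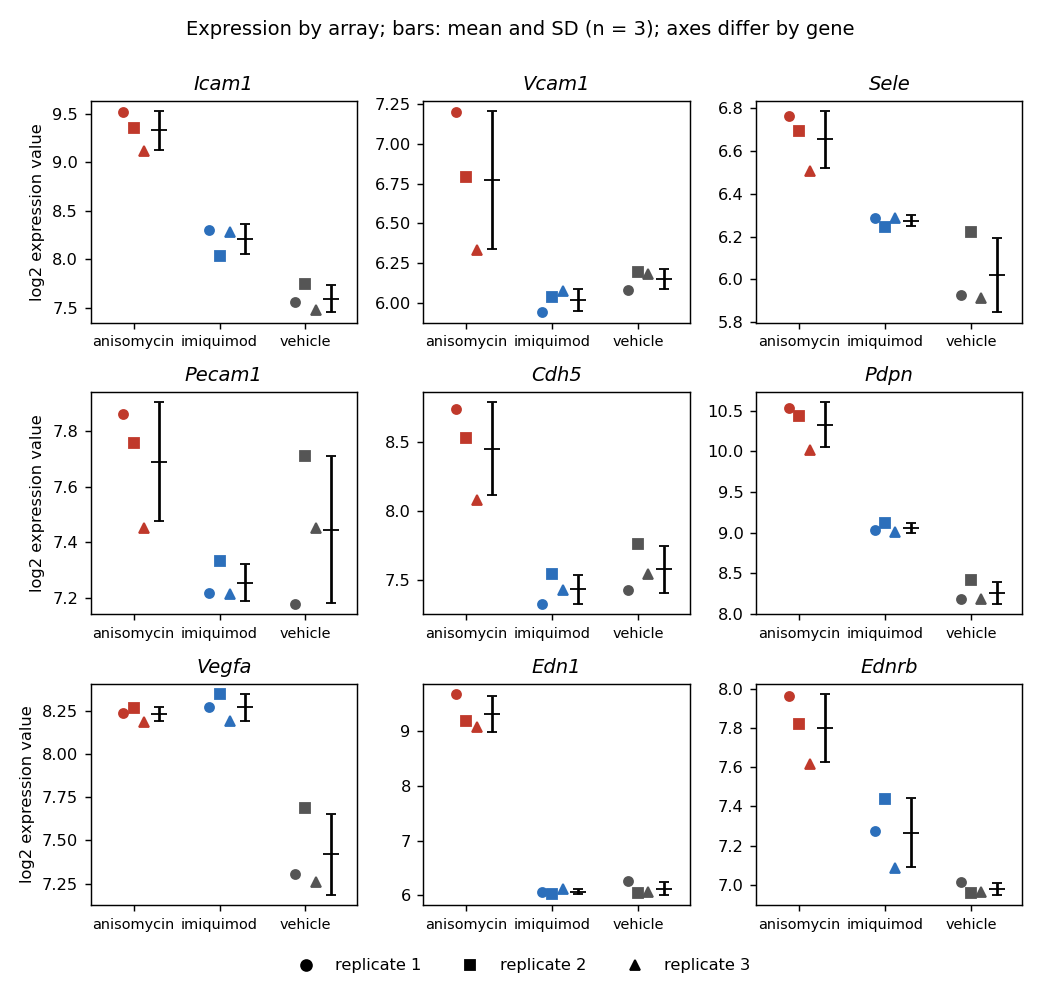
Log2 expression values of the 9 measured genes in each array, by group, with the replicate shown by the symbol and the mean and SD (n = 3) as bars. Edn1 lies between 9.07 and 9.68 in anisomycin ears and between 6.03 and 6.26 in all other arrays, while Vegfa is at 8.19 or more in both treated groups.

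Calls in Vegfa's pathway differed between the treatments. Of 18 other genes of the VEGF and angiopoietin pathway, 8 rose and 3 fell with anisomycin, and 1 rose and 8 fell with imiquimod. Between the treatments 10 were higher and 0 lower with anisomycin by limma, with 1 lower at an unadjusted p under 0.05. The shares over all genes were 22.3% and 23.3% with anisomycin, 20.4% and 22.4% with imiquimod, and 10.8% and 9.59% between the treatments. The median log2 fold changes were 0.058, -0.11 and 0.46, beside -0.0097, -0.026 and 0.015 over all genes. Angptl4, which encodes a secreted lipase inhibitor induced by hypoxia, rose by 2.23 with anisomycin and 1.21 with imiquimod (limma adjusted p = 2.11e-05 and 0.0011). Angpt2, an antagonist of the receptor Tie2 that activated endothelium releases, rose by 0.85 with anisomycin (limma adjusted p = 0.0011) and was higher by 0.75 than with imiquimod (limma adjusted p = 0.00809). The Notch ligand gene Dll4, made by sprouting tip cells, was higher by 0.66 with anisomycin than with imiquimod (limma adjusted p = 0.00269), and the apelin gene Apln rose by 0.93 with anisomycin (limma adjusted p = 0.00175). Receptor genes were lower with imiquimod than with vehicle, Tek (Tie2) at -0.99, Kdr (VEGF receptor 2) at -0.52 and Nrp1 at -0.47 (limma adjusted p at most 0.00655), and Tek was also at -0.69 with anisomycin (limma adjusted p = 0.00241). The single rise with imiquimod became 2 without anisomycin replicate 1 or 3 or vehicle replicate 2, and the 8 falls became 5 after cyclic loess. Without anisomycin replicate 3, 1 gene was called lower between the treatments.

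Genes of the vessel wall did not rise together, and with anisomycin their calls were near the shares over all genes. Of 20 pan-endothelial markers besides Pecam1 and Cdh5, 4 rose and 4 fell with anisomycin, with a median of 0.08. Among all genes 22.3% rose and 23.3% fell. With imiquimod 0 rose, also 0 at an unadjusted p under 0.05, and 7 fell, with a median of -0.28. There 20.4% of all genes rose and 22.4% fell. Between the treatments 8 were higher with anisomycin and 0 lower, also 0 at an unadjusted p under 0.05, with a median of 0.33. Of all genes 10.8% were higher and 9.59% lower in that comparison. With anisomycin the endoglin gene Eng rose by 0.62 (limma adjusted p = 0.000355), while the endothelial transcription factor gene Erg was at -0.64 and the tight junction gene Cldn5 at -0.61 (limma adjusted p = 0.00138 and 0.00293). With imiquimod Erg was at -0.89, Cldn5 at -0.85 and the von Willebrand factor gene Vwf at -0.63 (limma adjusted p at most 0.00783). Emcn (endomucin) and Esam were higher with anisomycin than with imiquimod by 0.86 and 0.67 (limma adjusted p = 0.00776 and 0.0114). The 4 rises with anisomycin became 8 without anisomycin replicate 3 or with arrays centred on their medians, and 9 after cyclic loess or with array weights. Without vehicle replicate 2, 1 rose with imiquimod. The 7 falls with imiquimod became 12 with arrays centred on stable genes. The 8 genes higher with anisomycin than with imiquimod became 4 without anisomycin replicate 1, 3 without anisomycin replicate 2, 5 without imiquimod replicate 1, 4 without imiquimod replicate 3, and 15 with array weights.

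**Figure D2:**
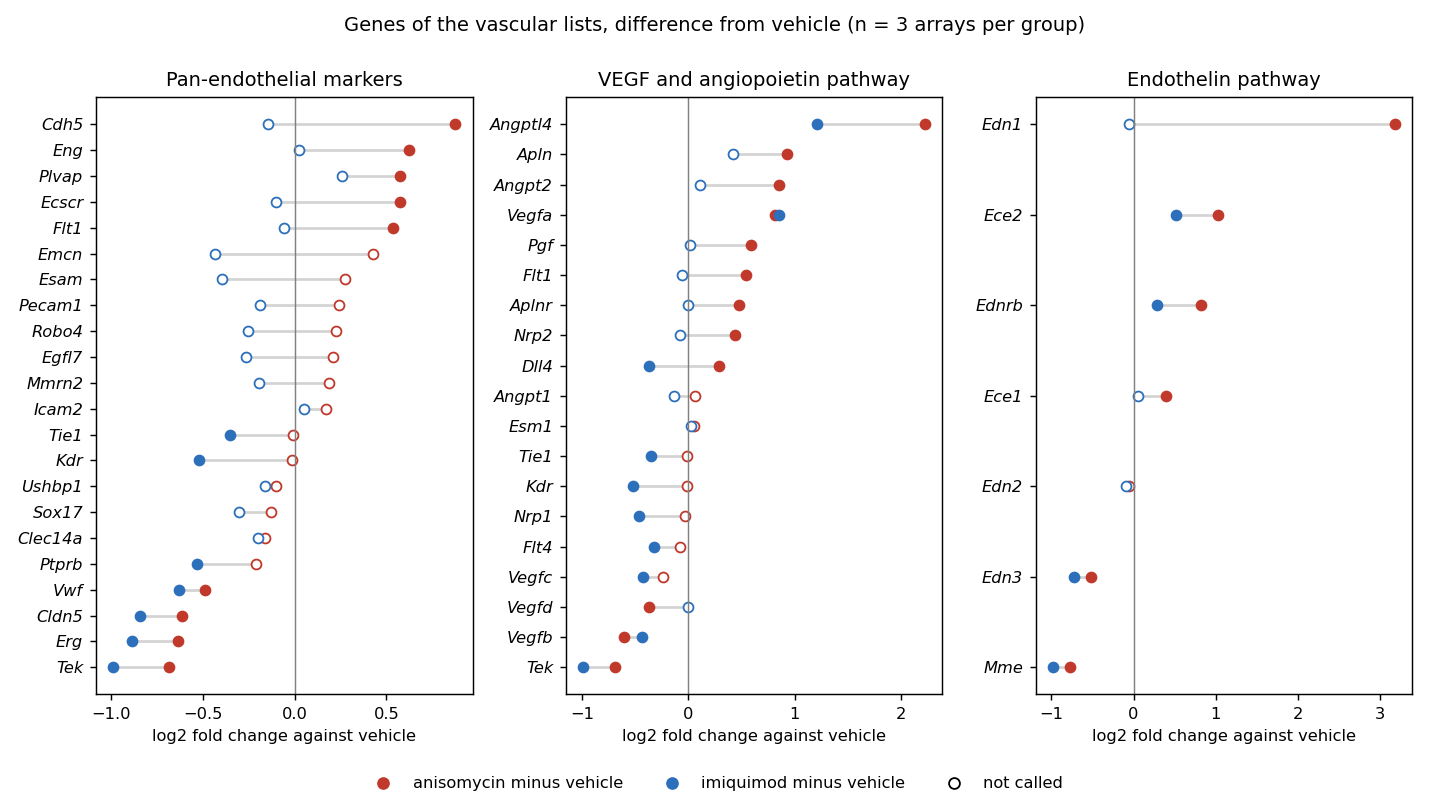
Log2 fold changes against vehicle of the pan-endothelial markers, the VEGF and angiopoietin genes and the endothelin genes (n = 3 arrays per group), with filled points for called genes and open points for the others. Cdh5 leads the endothelial markers with anisomycin at 0.88, Tek is lowest with imiquimod at -0.99, and the 2 points of Edn1 lie at 3.18 and -0.053.

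Of 11 further genes of endothelial adhesion and transmigration, 1 rose and 5 fell with each agent. Among all genes 22.3% rose and 23.3% fell with anisomycin, and 20.4% and 22.4% with imiquimod. F11r, which encodes the junctional adhesion molecule JAM-A of both endothelium and epithelium, rose by 1.17 with anisomycin and 0.86 with imiquimod (limma adjusted p = 7.75e-06 and 6.52e-05). The sialomucin gene Cd34 was at -0.90 with anisomycin and -1.11 with imiquimod, and Chst2, a sulfotransferase gene for selectin ligands of venules, at -0.59 and -0.83 (limma adjusted p at most 0.000665). Ackr1, the venular chemokine-binding receptor, was at -0.56 with anisomycin (limma adjusted p = 0.00812), and Jam2 at -0.80 with imiquimod (limma adjusted p = 0.00041). With anisomycin 2 rose without anisomycin replicate 3. Between the treatments 2 genes were higher with anisomycin, a count of 0 without any 1 of anisomycin replicates 1 and 2, imiquimod replicates 1 and 3 and vehicle replicate 3, and of 1 without imiquimod replicate 2, without the dimmest genes, with arrays centred on stable genes and after cyclic loess. With array weights 6 were higher.

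Vasoactive genes outside the endothelin family were called in both directions against vehicle, more often lower than higher. Of 23 measured, 6 rose and 9 fell with anisomycin, and 2 rose and 11 fell with imiquimod. With arrays centred on their medians, 8 rose and 7 fell with anisomycin. Shares over all genes were 22.3% higher and 23.3% lower with anisomycin, and 20.4% and 22.4% with imiquimod. Adm, which encodes the vasodilator adrenomedullin, rose by 3.93 with anisomycin (SE 0.30, limma adjusted p = 6.9e-06) and was higher by 3.20 than with imiquimod (limma adjusted p = 0.000247). Ramp3, a co-receptor gene for adrenomedullin, rose by 0.96 with anisomycin (limma adjusted p = 0.000302) and was higher by 1.19 than with imiquimod. S1pr1, a sphingosine 1-phosphate receptor gene of endothelium and lymphocytes, was higher by 1.08 with anisomycin than with imiquimod (limma adjusted p = 0.0064). The natriuretic peptide clearance receptor gene Npr3 was at -1.85 with anisomycin and -1.68 with imiquimod. The subunit genes of the nitric oxide receptor, Gucy1a1 and Gucy1b1, were at -0.89 and -1.04 with imiquimod, and the prostacyclin synthase gene Ptgis at -0.82 (limma adjusted p at most 0.000998). Between the treatments 7 were higher with anisomycin and 0 lower, also 0 at an unadjusted p under 0.05, and 4 were higher without any 1 of anisomycin replicate 2 and imiquimod replicates 1 and 3. The 2 rises with imiquimod were 1 without any 1 of anisomycin replicate 2, the 3 imiquimod arrays and vehicle replicates 1 and 2.

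Read together, 8 of the 9 measured members rose with anisomycin against vehicle and 0 fell, where 22.3% of all genes rose, and 4 rose with imiquimod and 0 fell, where 20.4% did. At an unadjusted p under 0.05 limma also gave 0 lower in both comparisons. In 8 of 9 genes all anisomycin arrays lay above all vehicle arrays, against 24.9% of all genes, and in 5 of 9 all imiquimod arrays did, against 24.4%. Between the treatments 7 of 9 were higher with anisomycin and 0 lower, where 10.8% of all genes were higher, and in 8 of 9 all anisomycin arrays lay above all imiquimod arrays, against 21.4%. The median log2 fold changes were 0.82, 0.25 and 0.76 for these comparisons, beside -0.0097, -0.026 and 0.015 over all genes. Both comparisons with vehicle share the vehicle arrays. The members were chosen with earlier results of these data known, so an excess over all genes is no independent support.

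**Figure D3:**
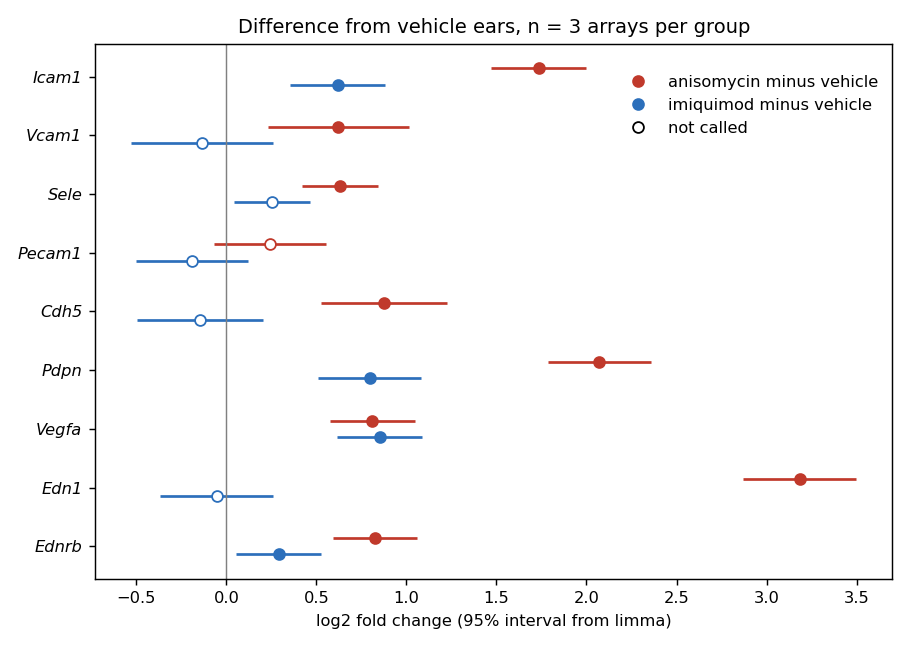
Log2 fold changes of the 9 genes against vehicle with 95% intervals from limma (n = 3 arrays per group), filled where called. The intervals of anisomycin and imiquimod are apart for Edn1, Cdh5, Pdpn, Icam1 and Ednrb and nearly coincide for Vegfa.

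Markers of other cells moved in the same ears. Over all genes 22.3% rose and 23.3% fell with anisomycin, and 20.4% and 22.4% with imiquimod. Of 16 leukocyte markers 11 rose and 1 fell with either agent, and the mean log2 level of the list was 8.64 to 8.81 by array in anisomycin ears, 8.74 to 8.82 in imiquimod ears and 6.89 to 7.03 in vehicle ears. The largest rises in the list were of S100a8, by 5.50 with anisomycin and 6.62 with imiquimod, and S100a9, by 5.01 and 6.29. The list had medians of 1.26 and 1.28. Which cells made these transcripts was not tested. The gene that fell, the T cell gene Cd3e at -0.54 and -0.41, is named after its values were seen, and its call with imiquimod ended with arrays centred on their medians and without imiquimod replicate 1 or 2 or vehicle replicate 1 or 3. Of 6 platelet markers 2 rose with anisomycin, Ppbp by 4.34 and Pf4 by 1.41 (limma adjusted p = 3.06e-07 and 1.29e-05), and 4 were not called, among them the platelet glycoprotein genes Gp5 at -0.016, Gp9 at 0.021 and Itga2b at 0.16, named after their values were seen. With imiquimod Ppbp and Pf4 also rose, by 1.09 and 0.53 (limma adjusted p = 0.00137 and 0.00538), and Itgb3 was at -0.39 (limma adjusted p = 0.0245). After cyclic loess the call of Pf4 ended, and that of Itgb3 ended there, with array weights and without any 1 of imiquimod replicates 1 and 3 and vehicle replicates 2 and 3. The platelet list averaged 7.39 to 7.55 in anisomycin ears, 6.61 to 6.82 in imiquimod ears and 6.45 to 6.59 in vehicle ears. Pericyte and smooth muscle markers, 11 in number, gave 1 higher and 4 lower with anisomycin and 0 higher and 6 lower with imiquimod, with 1 higher there at an unadjusted p under 0.05. The count higher was 2 with anisomycin without anisomycin replicate 3 or vehicle replicate 2, and 1 with imiquimod without anisomycin replicate 3. Abcc9 was at -1.37 with anisomycin and -1.39 with imiquimod, Cspg4 at -0.95 and -1.08, and the pericyte marker Rgs5 at -0.89 and -1.27. Acta2, smooth muscle actin, was the 1 gene of the list that rose with anisomycin, by 0.49 (limma adjusted p = 0.00165).

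Melanocytes carry the endothelin B receptor, so their markers were read beside Ednrb. Of all genes 22.3% rose and 23.3% fell with anisomycin, and 20.4% and 22.4% with imiquimod. Of 8 measured, 0 rose with either agent, also 0 at an unadjusted p under 0.05, 3 fell with anisomycin and 5 with imiquimod, the last a count of 2 or 3 without any 1 of the imiquimod arrays and vehicle replicates 1 and 2. With arrays centred on their medians the count lower with imiquimod was 2, and after cyclic loess 3. With arrays centred on stable genes 5 fell with anisomycin and 7 with imiquimod. Mlana was at -0.76 with anisomycin and -0.77 with imiquimod (limma adjusted p = 0.000118 and 0.000128). The list averaged 6.197 to 6.42 in anisomycin ears, 6.23 to 6.35 in imiquimod ears and 6.66 to 6.69 in vehicle ears. The endothelial list without Pecam1 and Cdh5 averaged 7.13, 7.06 and 6.85 in anisomycin ears, 6.65, 6.66 and 6.60 in imiquimod ears and 6.82, 7.18 and 6.93 in vehicle ears. Anisomycin and vehicle overlapped there, and imiquimod lay below both. The part of melanocytes, endothelium or other cells in the values of Ednrb and the other members was not tested.

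**Figure D4:**
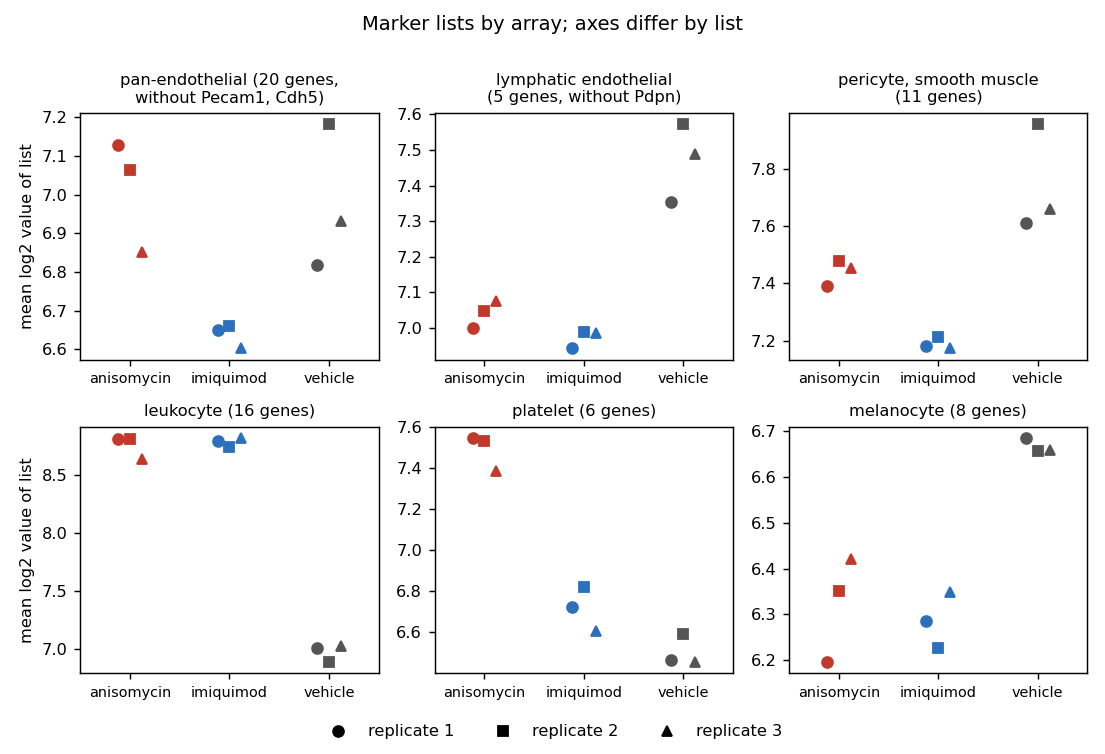
Mean log2 value of 6 marker lists in each array, by group, with the replicate shown by the symbol. The anisomycin and vehicle arrays overlap for the endothelial list, leukocyte markers are high in both treated groups, and melanocyte markers are low in both.

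The genes nearest in pattern were sought among all genes by the root mean square difference of gene-centred log2 values over the 9 arrays, as a description only. Inhba, which encodes a subunit of activin A, was nearest to Edn1 at 0.26, with log2 fold changes of 3.49 for anisomycin and -0.085 for imiquimod, followed by Dynap at 0.34 and Adm at 0.47. Cdh5 was nearest to Rhoc at 0.083, St3gal1 at 0.11 and Lhfpl2 at 0.11. Pecam1 lay next to Cyyr1 at 0.061, the endothelial matrix gene Mmrn2 at 0.071 and the basement membrane collagen gene Col4a1 at 0.077. Pdpn was nearest to the receptor gene S1pr3 at 0.095, then Pxdc1 at 0.14 and Ccdc71l at 0.14. Icam1 lay next to Trpv2, Csrnp1 and H2bc4, at 0.11 to 0.12, and Vcam1 next to Uap1, Ddit3 and Dock5, at 0.071 to 0.077. Sele lay next to Slc39a7 at 0.049, Tnfrsf9 at 0.059 and Lrrfip1 at 0.063. Vegfa lay next to Nap1l1 at 0.084, the glycolytic gene Pkm at 0.093 and Map2k1 at 0.11, and Ednrb next to Cd63, Eps8 and Fgd3, at 0.073 to 0.087.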

How the data were processed

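Whole ear RNA from 3 groups of 3 was measured on Mouse Gene 1.0 ST arrays. Each probe set's value had been made by the authors with RMA, as the submitters' processing notes name it (version and annotation release not given in the sources used here). These deposited values are on a log2 scale, judged by their range of 2.39 to 13.97. Scanner files were not used here, and 3 arrays a group limit the precision. No 2 arrays held the same values (smallest root mean square difference 0.18).

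Of 35556 rows, 21789 carried 1 gene symbol, 1621 several and 12146 none in the platform annotation. Rows with 1 symbol gave 19938 genes, of which 999 had several probe sets, and the brightest was kept. Groups were fitted with limma 3.58.1 in R 4.3.3, without covariates or a filter on dim genes (6 residual and 3.164 prior degrees of freedom), two-sided. An exact rank test of 3 against 3 cannot go below 0.1. The fit was checked on simulated data in which few genes were changed, in the anisomycin group only. Far more genes were called here, so the check does not cover such a setting. Promoter windows and loci are from RefSeq GRCm38.p6, a build named with each window and set by hand for the loci.

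The members and the 14 gene lists (188 memberships, 178 measured) were chosen with earlier results of these data known, so agreement with them is no independent support. Some genes belong to several lists, so the lists are not independent. Among them, Tek is in the pan-endothelial and VEGF lists, and Adm in the other vasoactive and hypoxia lists. Named list genes are the up to 4 called members of a list with the largest change in a comparison, and others are marked. Like-patterned genes are the 3 nearest to each member, leaving out predicted loci, clone names and receptor segments. Alternatives were a trended robust prior, leaving out the dimmest 30% of genes, centring on medians or on 1000 stable genes, cyclic loess, averaging all probe sets of a gene, array weights, a block for the replicate number, each array left out in turn, and fitting only the groups compared.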

Additional observations from a re-analysis of the deposited data

How the results depend on the processing

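The number of members called was 7 to 9 for anisomycin against vehicle, 3 to 5 for imiquimod against vehicle and 5 to 8 for anisomycin against imiquimod over the alternatives, each within 1.5 times the 8, 4 and 7 reported. Of 486 values of the 9 members under alternatives, 451 kept their direction and their side of the threshold, 17 lost the call, 15 gained it and 3 changed sign. The sign changes were all of Edn1 with imiquimod, which was not called: 0.011 with arrays centred on their medians, 0.0052 after cyclic loess, and -0.094 to 0.016 when single arrays were left out. Outside the left-out arrays named in the report, Ednrb with imiquimod lost its call with the trended robust prior, array weights or stable genes, Sele with imiquimod gained one without dim genes, after median centring, cyclic loess or array weights, and Pecam1 between the treatments gained one without dim genes, after median centring, with array weights or with only the 2 groups. Pecam1 with anisomycin passed with array weights at 0.38. The causes were not tested. Over all genes, the 4059 calls between the treatments became 8557 with array weights and 2523 to 2589 without any 1 of anisomycin replicates 1 and 2 and the imiquimod arrays. The list genes named by the rule gave 2517 values under alternatives, of which 92 lost their call and 0 changed sign.

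The replicate number names no shared animal, day or litter in the labels. Deviations of same-numbered arrays from their group means correlated at -0.20 to 0.20 over genes, and 6 of 18 comparisons put an array closest to its own number. The fit with the replicate block gave 8, 4 and 7 called members, and 8924, 8280 and 3734 genes in all. With imiquimod it left 0 lymphatic markers higher, where 1 had been (Lyve1), 3 melanocyte markers lower, where 5 had been, 2 genes of the VEGF list higher, where 1 had been, and 1 of the other vasoactive genes higher, where 2 had been. Between the treatments it gave 2 fibroblast markers higher, where 1 had been.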

Other observations

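Vegfa is a known target of the hypoxia response, and other genes of that response were read beside it. Of 12 measured, 8 rose and 2 fell with anisomycin by limma, where 22.3% of all genes rose and 23.3% fell. With imiquimod 7 rose and 0 fell, also 0 at an unadjusted p under 0.05, where 20.4% of all genes rose and 22.4% fell. Between the treatments 2 were higher and 5 lower with anisomycin, beside 10.8% and 9.59% of all genes. The glycolytic gene Pgk1 rose by 1.85 with anisomycin and 2.03 with imiquimod, and the glucose transporter gene Slc2a1 by 1.34 and 1.80. The oxygen sensor gene Egln3 was lower by -1.34 with anisomycin than with imiquimod, Pdk1 by -0.83 and Bnip3 by -0.71, while Adm was higher by 3.20. Each of these was called by limma (adjusted p at most 0.00122). The part of hypoxia in the Vegfa values was not tested.

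Within the anisomycin group, replicate 3 was the lowest of the 3 arrays in 9 of 9 members and replicate 1 the highest in 8 of 9, with Vegfa highest in replicate 2. Among the 4454 genes called higher with anisomycin, replicate 3 was lowest in 45.2% and replicate 1 highest in 41%. No label records a difference between these arrays.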
